A study of Rattus norvegicus with 36 samples.

Results

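The endoplasmic reticulum (ER) chaperone and unfolded protein response genes described here were Hspa5, Xbp1, Dnajb9, Herpud1, Pdia4, Pdia6, Hsp90b1, Calr and Sdf2l1, measured in cultured rat granulosa cells. They were found by gene symbol, current or older, among the annotated probe sets of the array. Each of the 9 genes had 1 probe set, out of 31042 probe sets tested and 14217 genes that could be named. The rule used no measured value, although the genes were proposed with earlier results of these data known, and the mean log2 intensity of all 9 was above 6, the level below which a probe set was counted as dim.

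The unfolded protein response senses misfolded protein in the ER and acts through the sensors Ern1, Eif2ak3 (PERK) and Atf6. Ern1 splices the Xbp1 transcript so that it codes for an active transcription factor, Atf6 is cut to release one, and PERK phosphorylates the initiation factor eIF2alpha, which lowers general translation and lets Atf4 be made. Together these factors raise the transcription of chaperones, disulfide isomerases and proteins that return misfolded chains to the cytosol for degradation. Granulosa cells surround the oocyte in the ovarian follicle and secrete inhibin and matrix proteins, whose folding passes through the ER.

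The cells were obtained by needle puncture from the ovaries of Sprague-Dawley rats that were immature (21 to 27 days) and plated for 24 h in 5% serum. The 48 h of treatment took place without serum but with androstenedione, which aromatase converts to estradiol; its concentration was 0.1 µM by the design text, while the sample descriptions give the unit as M. HPTE, an estrogen-receptor-binding metabolite of the pesticide methoxychlor, was given at 0, 1, 5 or 10 µM, either alone (basal) or together with 3 ng/ml of follicle-stimulating hormone (FSH) or 1 mM of cAMP. FSH acts on granulosa cells by raising cAMP; which form of cAMP was added is not given in the sources. The 12 groups held 3 arrays each, numbered 1 to 3, for 36 Affymetrix Rat Genome 230 2.0 arrays. Separate animals, pools or wells are not named in the labels for the arrays of 1 group, and p-values therefore cover only the spread between these samples, which may be technical. In bulk RNA, fewer cells of a type and less RNA per cell cannot be told apart.

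The promoters are shown because the genes respond to a shared set of factors whose binding elements are known. Windows from 250 bases before to 50 bases after the start of each gene were taken from RefSeq (rat build GRCr8), in which 8 of the 9 genes matched by symbol and Pdia6 did not. The ER stress response element, ERSE, was searched on both strands as CCAAT and CCACG with any 9 bases between them, and was present in 22 of 33469 promoters (0.0657%). Among the 8 windows it was found in those of Hspa5, Xbp1, Hsp90b1 and Calr. The related ERSE-II, which is ATTGG and CCACG with any 1 base between them, was present in 17 of all promoters (0.0508%) and here in Herpud1. In the following windows, each 5′ to 3′ on the strand of the gene, capitals mark the ERSE or, in Herpud1, the ERSE-II; a match in the opposite orientation reads as its reverse complement.
Hspa5, chr3:38452766-38453065, plus strand: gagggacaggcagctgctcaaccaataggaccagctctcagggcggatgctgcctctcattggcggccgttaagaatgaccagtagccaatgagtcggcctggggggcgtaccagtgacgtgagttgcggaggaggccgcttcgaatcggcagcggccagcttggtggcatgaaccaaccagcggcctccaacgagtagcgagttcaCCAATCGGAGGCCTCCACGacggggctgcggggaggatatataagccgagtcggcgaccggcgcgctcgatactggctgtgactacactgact
Xbp1, chr14:84604373-84604672, plus strand: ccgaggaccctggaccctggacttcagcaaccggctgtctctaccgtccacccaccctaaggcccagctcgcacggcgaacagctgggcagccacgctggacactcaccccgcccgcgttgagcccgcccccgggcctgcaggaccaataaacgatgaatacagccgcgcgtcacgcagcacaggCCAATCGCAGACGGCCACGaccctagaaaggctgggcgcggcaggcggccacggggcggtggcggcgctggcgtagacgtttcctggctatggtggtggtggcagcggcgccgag
Herpud1, chr19:10614658-10614957, minus strand: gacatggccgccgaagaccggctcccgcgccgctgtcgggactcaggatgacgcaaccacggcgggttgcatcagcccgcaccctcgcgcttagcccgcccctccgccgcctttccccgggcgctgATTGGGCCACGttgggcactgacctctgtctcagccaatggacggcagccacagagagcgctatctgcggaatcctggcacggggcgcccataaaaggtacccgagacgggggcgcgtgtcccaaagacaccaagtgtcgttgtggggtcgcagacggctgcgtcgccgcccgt
Hsp90b1, chr7:23012244-23012543, minus strand: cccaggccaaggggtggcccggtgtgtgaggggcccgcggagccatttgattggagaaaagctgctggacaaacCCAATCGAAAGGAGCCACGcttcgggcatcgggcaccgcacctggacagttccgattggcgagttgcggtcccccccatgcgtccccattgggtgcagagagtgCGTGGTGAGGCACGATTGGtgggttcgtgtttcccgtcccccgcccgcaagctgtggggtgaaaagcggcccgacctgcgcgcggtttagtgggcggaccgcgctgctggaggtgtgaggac
Calr, chr19:40213117-40213416, plus strand: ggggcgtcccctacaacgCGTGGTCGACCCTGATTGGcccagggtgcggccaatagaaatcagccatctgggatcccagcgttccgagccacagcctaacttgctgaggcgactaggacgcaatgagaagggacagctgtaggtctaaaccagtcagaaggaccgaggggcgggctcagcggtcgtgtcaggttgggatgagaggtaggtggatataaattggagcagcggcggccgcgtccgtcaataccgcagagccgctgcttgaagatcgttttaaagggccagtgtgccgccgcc

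With the first base of the gene counted as 1 and the base before it as -1, the element of Hspa5 began at -43 and that of Xbp1 at -65. Hsp90b1 had 1 element in forward orientation at -176 and another in reverse at -72, and the element of Calr lay in reverse at -232. The ERSE-II of Herpud1 began at -124, and its window also held TTGCATCA, an element bound by Atf4, at -184; that motif was present in 0.795% of all promoters. The core ACGTGG of the element bound by Xbp1 was in reverse orientation in the Dnajb9 window at -105 and in the Herpud1 window at -118, where it overlaps the ERSE-II; it was present in 7.84% of all promoters. The full form of that element, TGACGTGG (0.595% of all promoters), and the cAMP response element TGACGTCA (1.83%) matched in 0 of the 8 windows. The windows of Dnajb9 and Herpud1 lie inside the annotated span of their gene, which has other starts. A match describes letters in a window, not a bound site.

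Median intensities of the 36 arrays lay between 65.8 and 73.7. The arrays numbered 3 stood apart in the Gapdh controls: the log2 ratio of their 3′ over their 5′ signal was 0.77 to 1.07 on them, 1.82 to 2.31 on the arrays numbered 1 and 1.61 to 2.40 on those numbered 2; group means lay between 1.49 and 1.86. Arrays with the same number deviated together, so for the 9 genes fits with the number as a block are given where they change a call. A pair of arrays went against their labels. In cells without HPTE, aromatase (Cyp19a1) measured log2 11.49, 7.48 and 11.46 on the FSH arrays 1 to 3 and 7.62, 11.01 and 6.46 on the cAMP arrays, and the LH receptor Lhcgr measured 10.27, 5.94 and 11.50 against 5.66, 10.04 and 5.80. Each array labelled number 2 thus had the level of the other stimulus, and results that rest on these 2 arrays are given with and without them. The 9 measured granulosa markers all had a mean log2 intensity above 6. Of the other cell types, 3 of 8 theca and stroma markers, 6 of 9 macrophage and leukocyte markers, 5 of 6 endothelial markers, 2 of 6 oocyte markers and 4 of 5 surface epithelium markers were below it.

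Across the 12 groups the levels of these genes covered a narrow range, and the cAMP cells spanned most of it. The highest group mean was that of cAMP with 10 µM HPTE for 7 of the 9 genes, the exceptions being Pdia6 (basal, 1 µM) and Calr (FSH, 1 µM). The lowest was cAMP without HPTE for Hspa5, Xbp1, Pdia4, Hsp90b1 and Sdf2l1, cAMP with 1 µM for Herpud1, Pdia6 and Calr, and basal with 1 µM for Dnajb9. Herpud1 had the widest span of group means, 8.46 to 9.71 on the log2 scale, and Calr the narrowest, 11.59 to 11.99. When the groups were ordered by mean, nearly all neighbours lay closer than the pooled SD of replicates. For Hspa5, Pdia4, Hsp90b1 and Calr no neighbouring groups were further apart than it. For Herpud1 1 gap of 0.66 exceeded its pooled SD of 0.27 and set cAMP with 10 µM HPTE above the other 11 groups. For Xbp1 the gap of 0.34 (pooled SD 0.25) and for Sdf2l1 that of 0.28 (pooled SD 0.24) lay just below cAMP with 5 µM.

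**Figure D1:**
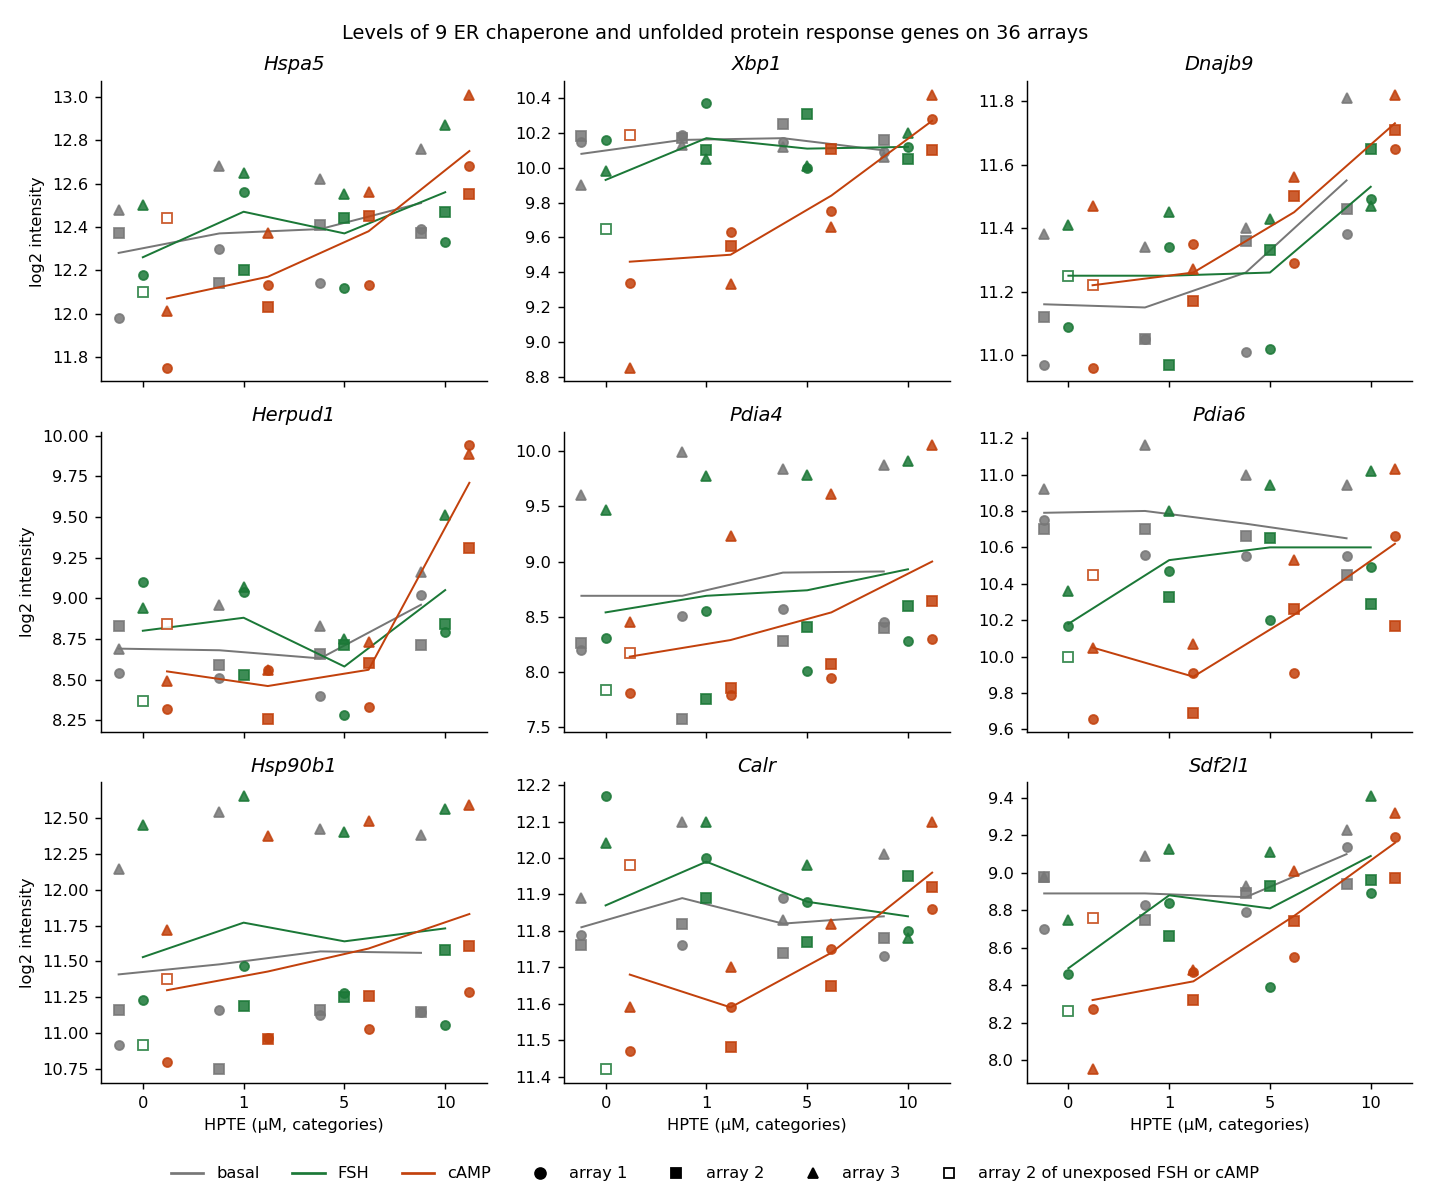
Log2 intensity of each of the 9 genes (vertical axes, scaled per gene) at 0, 1, 5 and 10 µM HPTE (horizontal axes, categories) in basal (grey), FSH (green) and cAMP (orange) cells; symbols are single arrays numbered 1, 2 or 3, lines join group means, and open squares are the arrays numbered 2 of the unexposed FSH and cAMP groups. Herpud1 rises from 8.55 to 9.71 between 0 and 10 µM in cAMP cells, and the arrays numbered 3 lie above the others in every group for Pdia4 and Hsp90b1.

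In cells given cAMP, 10 µM HPTE raised Herpud1, Sdf2l1 and Xbp1. These 3 of the 9 genes were called at an adjusted p under 0.05 by limma, all higher, where 1.2% of all probe sets were called higher. In a fit of only the 16160 probe sets with a mean log2 of at least 6, 377 were called higher. All 9 differences were positive; their median was 0.681 on the log2 scale, and that of all probe sets was -0.0244. The rises in this paragraph and the next ones are log2 differences ± SE from the fit across all 36 arrays, with 3 arrays against 3.

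Herpud1, a membrane protein of the ER-associated degradation machinery, moved most. It measured log2 8.32, 8.84 and 8.49 on arrays 1 to 3 without HPTE and 9.94, 9.31 and 9.89 at 10 µM. Every exposed array lay above every unexposed one, and the exposed array nearest to the unexposed ones was number 2. The difference was 1.16 ± 0.22, or 2.24-fold (adjusted p = 0.00236), and 1.31 without the 2 arrays that went against their labels (adjusted p = 0.00106). At 1 and 5 µM Herpud1 differed from 0 µM by -0.09 ± 0.22 (0.05 without the 2 arrays) and 0.01 ± 0.22 in these cells.

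Xbp1, the transcription factor made active by Ern1, measured 9.34, 10.19 and 8.85 without HPTE and 10.28, 10.10 and 10.42 at 10 µM. Both array groups overlapped through the unexposed array 2, which lay within the exposed range, while arrays 1 and 3 lay well below it. The difference was 0.81 ± 0.20, or 1.75-fold (adjusted p = 0.0264), and 1.17 without the 2 arrays that went against their labels (adjusted p = 2.88e-05). The call was lost without unexposed array 1 (0.75, adjusted p = 0.124) or 3 (0.50, adjusted p = 0.253) and without exposed array 1 (0.80, adjusted p = 0.0867) or 3 (0.73, adjusted p = 0.161). The probe set does not report splicing, so these values are of total Xbp1 transcript.

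Sdf2l1, a soluble ER protein found in complexes with chaperones, measured 8.27, 8.76 and 7.95 without HPTE and 9.19, 8.97 and 9.32 at 10 µM. The groups did not overlap. The difference was 0.84 ± 0.19, or 1.79-fold (adjusted p = 0.0159), and 1.05 without the 2 arrays that went against their labels (adjusted p = 0.00207). As for Xbp1, the call was lost without array 1 or 3 of either group: 0.81 (adjusted p = 0.0722) and 0.65 (adjusted p = 0.141) without unexposed arrays 1 and 3, and 0.82 (adjusted p = 0.0619) and 0.76 (adjusted p = 0.116) without exposed arrays 1 and 3.

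Hspa5 (BiP), the main Hsp70 chaperone of the ER, and its cochaperone Dnajb9, which also binds misfolded proteins bound for degradation, were not called by limma with all arrays and no block, and passed when the array number was a block. Hspa5 measured 11.75, 12.44 and 12.01 without HPTE and 12.68, 12.55 and 13.01 at 10 µM in cAMP cells. Dnajb9 measured 10.96, 11.22 and 11.47 against 11.65, 11.71 and 11.82. In neither gene did the groups overlap. Hspa5 differed by 0.68 ± 0.20 (adjusted p = 0.0913; 0.00212 with the array number as a block; 0.0232, at 0.87, without the 2 arrays that went against their labels). Dnajb9 differed by 0.51 ± 0.15 (adjusted p = 0.108; 0.00539 with the block; 0.155, again at 0.51, without the 2 arrays).

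The disulfide isomerases Pdia4 and Pdia6, the Hsp90 chaperone of the ER Hsp90b1, and the lectin chaperone calreticulin (Calr) were not called in cAMP cells. Their differences at 10 µM were 0.85 ± 0.68, 0.57 ± 0.24, 0.53 ± 0.57 and 0.28 ± 0.15, with adjusted p of 0.884, 0.375, 0.951 and 0.593. Exposed and unexposed arrays overlapped in all 4 genes. Between arrays with the same number, 1 to 3, Pdia4 rose by 0.49, 0.47 and 1.59 and Hsp90b1 by 0.49, 0.22 and 0.87. Those differences were 1.00, -0.27 and 0.99 for Pdia6 and 0.39, -0.06 and 0.52 for Calr. With the array number as a block Pdia4 (adjusted p = 0.0208) and Pdia6 (adjusted p = 0.0315) were called and Hsp90b1 (adjusted p = 0.0547) and Calr (adjusted p = 0.29) were not. The block raised the count from 3 to 7 of 9 genes while 3.89% of all probe sets were then called higher. Leaving out the 2 arrays that went against their labels gave 5 of 9 (1.78% of all probe sets higher), among them Calr at 0.43 (adjusted p = 0.0486). Both changes together gave 9 of 9 (6.19% of all probe sets higher). The mean Gapdh 3′ to 5′ log2 ratio of the cAMP arrays was 1.64 at 0 µM and 1.53 at 10 µM; its part in these differences was not tested.

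Averaged over the 3 stimuli, 10 µM HPTE raised Herpud1, Sdf2l1, Dnajb9 and Hspa5. These were 4 of the 9 genes, all higher, against 4.57% of all probe sets called higher. Dim probe sets lower that share: in a fit of only the 16160 with a mean log2 of at least 6, 1373 were called higher. Herpud1 rose by 0.56 ± 0.13 (adjusted p = 0.00344), Sdf2l1 by 0.55 ± 0.11 (adjusted p = 0.00108), Dnajb9 by 0.40 ± 0.09 (adjusted p = 0.00331) and Hspa5 by 0.40 ± 0.12 (adjusted p = 0.0247), which are changes of 1.47-, 1.46-, 1.32- and 1.32-fold. The rise of Hspa5 depended on single arrays. It was not called without array 1 of the unexposed basal (0.35, adjusted p = 0.068) or cAMP cells (0.35, adjusted p = 0.0674), array 2 of the unexposed FSH cells (0.38, adjusted p = 0.0528), or array 3 at 10 µM in basal (0.36, adjusted p = 0.0629), FSH (0.35, adjusted p = 0.0698) or cAMP cells (0.36, adjusted p = 0.0668). Without the 2 arrays that went against their labels it was 0.44 (adjusted p = 0.0179).

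The other 5 genes did not pass in the average over stimuli. Xbp1 differed by 0.34 ± 0.11 (adjusted p = 0.0644), which passed with the block (adjusted p = 0.0248) and without the 2 arrays (0.42, adjusted p = 0.00139). Pdia4 differed by 0.49 ± 0.39, Pdia6 by 0.28 ± 0.14, Hsp90b1 by 0.29 ± 0.33 and Calr by 0.09 ± 0.08. With the block Pdia4 (adjusted p = 0.00827), Hsp90b1 (adjusted p = 0.0306) and Pdia6 (adjusted p = 0.0335) passed too, which made 8 of 9 with 9.53% of all probe sets called higher. Calr did not pass in either fit (adjusted p = 0.71 and 0.519).

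**Figure D2:**
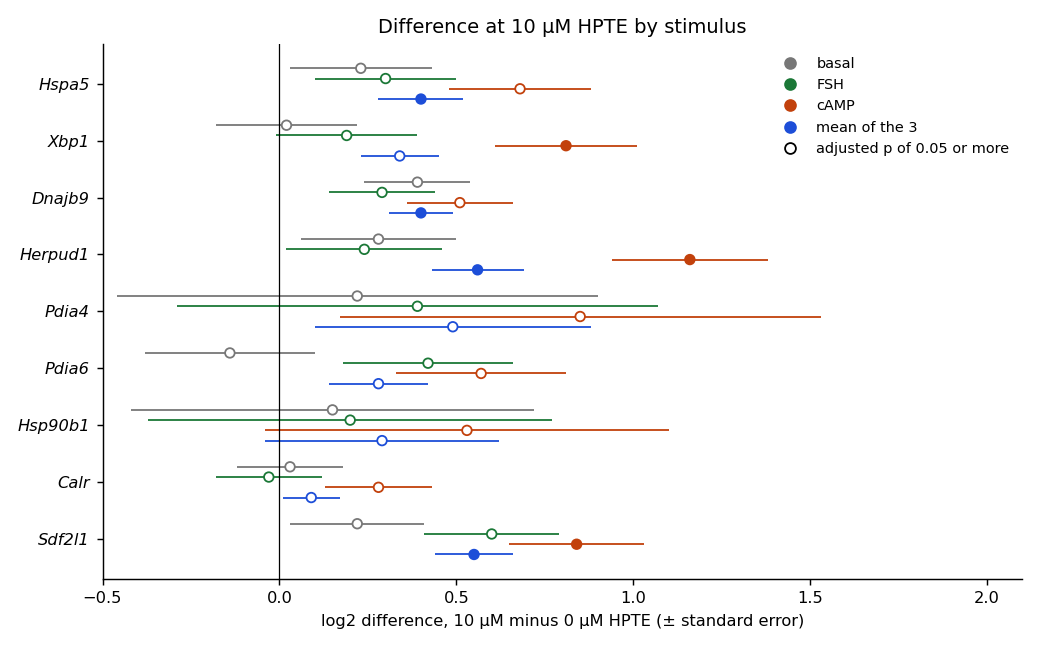
Log2 difference between 10 and 0 µM HPTE (horizontal axis) for each gene in basal (grey), FSH (green) and cAMP (orange) cells and averaged over them (blue); points are limma estimates, bars are ± 1 SE, and filled points have an adjusted p under 0.05. Herpud1 in cAMP cells lies farthest right at 1.16, and the SE of Pdia4 and Hsp90b1 within a stimulus are the widest at 0.68 and 0.57.

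In basal cells and in FSH cells none of the 9 genes was called at 10 µM by limma. In basal cells 1.02% of all probe sets were called. Shares called, here and below, are at the adjusted p and give no background for counts at an unadjusted p. An unadjusted p under 0.05 was found for 1999 of the 31042 probe sets and for 1 of the 9 genes. That gene was Dnajb9, which measured 10.97, 11.12 and 11.38 without HPTE and 11.38, 11.46 and 11.81 with it. The array groups met at 11.38 and the difference was 0.39 ± 0.15 (adjusted p = 0.453; 0.0589 with the block). The remaining basal differences lay between -0.14 ± 0.24 (Pdia6) and 0.28 ± 0.22 (Herpud1).

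FSH cells had the most calls over all probe sets at 10 µM, 8.45%. The unadjusted p was under 0.05 for 5281 of the 31042 probe sets and for 1 of the 9 genes. Sdf2l1 came nearest, with 8.46, 8.26 and 8.75 without HPTE and 8.89, 8.96 and 9.41 at 10 µM. The exposed arrays all lay above the unexposed ones. The difference was 0.60 ± 0.19 (adjusted p = 0.0505); with the block it passed (adjusted p = 0.0108; 8.47% of all probe sets higher), and without the 2 arrays that went against their labels it was 0.48 (adjusted p = 0.163). It also passed when FSH array 1 at 10 µM (0.70, adjusted p = 0.0467) or unexposed FSH array 3 (0.73, adjusted p = 0.0352) was left out. Herpud1, which rose in cAMP cells, differed by 0.24 ± 0.22 in FSH cells, and by 0.03 ± 0.23 without the 2 arrays that went against their labels.

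At 1 and 5 µM none of the 9 genes was called in any stimulus by limma, and 1 unadjusted p was under 0.05, that of Sdf2l1 in cAMP cells at 5 µM. Over all probe sets the shares called at 1 and 5 µM were 0% and 0.0129% in basal, 0.00644% and 6.54% in FSH and 0% and 0.00322% in cAMP cells. With the array number as a block none of the 9 was called either, with 0% and 0.116%, 0.0966% and 14.3%, and 0.0226% and 0.0741% of all probe sets. The largest differences were those of Sdf2l1 in cAMP cells at 5 µM (0.44 ± 0.19, adjusted p = 0.56) and of Pdia6 in FSH cells at 5 µM (0.42 ± 0.24, adjusted p = 0.445). Leaving out the 2 arrays that went against their labels together with the block called 3 of the 9 genes in cAMP cells at 5 µM (0.934% of all probe sets higher), which were Xbp1 (0.72, adjusted p = 0.02), Sdf2l1 (0.69, adjusted p = 0.0321) and Hspa5 (0.54, adjusted p = 0.0378).

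The rise in cAMP cells started from levels that, for some of the genes, lay below those of basal cells. At 1 µM HPTE, cAMP cells had less Xbp1 and Pdia6 than basal cells, 2 of the 9 genes against 4.47% of all probe sets called lower. Pdia6, which reduces and isomerises disulfide bonds, measured 10.56, 10.70 and 11.16 on basal arrays and 9.91, 9.69 and 10.07 on cAMP arrays. The groups were separate, with a difference of -0.92 ± 0.24 (adjusted p = 0.011). Xbp1 measured 10.19, 10.17 and 10.13 against 9.63, 9.55 and 9.33, with a difference of -0.66 ± 0.20 (adjusted p = 0.0323), also without overlap. The Xbp1 call was lost without basal array 1 (-0.65, adjusted p = 0.0911), 2 (-0.66, adjusted p = 0.0855) or 3 (-0.68, adjusted p = 0.0719) and without cAMP array 2 (-0.68, adjusted p = 0.0717) or 3 (-0.57, adjusted p = 0.154). The Pdia6 call was lost without basal array 3 (-0.74, adjusted p = 0.0923) or cAMP array 2 (-0.81, adjusted p = 0.068). With the block Sdf2l1 was called lower as well (-0.47, adjusted p = 0.16 without and 0.0496 with it), on arrays that did not overlap, which made 3 of the 9 genes against 8.07% of all probe sets.

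Without HPTE none of the 9 genes passed in the comparison of cAMP with basal cells by limma, where 7.18% of all probe sets were called. An unadjusted p under 0.05, for which the 7.18% gives no background, was found for 3 of the 9 genes. Those 3 were Pdia6 (-0.74 ± 0.24, adjusted p = 0.0574), Xbp1 (-0.62 ± 0.20, adjusted p = 0.0566) and Sdf2l1 (-0.56 ± 0.19, adjusted p = 0.082). All 3 passed with the block (adjusted p = 0.00146, 0.0206 and 0.019; 8.73% of all probe sets lower) and without the 2 arrays that went against their labels (-0.93, -0.98 and -0.78, adjusted p = 0.0224, 5.82e-05 and 0.0109; 4.69% lower). Pdia6 measured 10.75, 10.70 and 10.92 on basal arrays against 9.66, 10.45 and 10.05 on cAMP arrays, with no overlap, and for Xbp1 cAMP array 2 alone reached the basal level.

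At the higher doses the differences between cAMP and basal cells lay elsewhere, given here without a test of the trend. For Xbp1 the difference was -0.62, -0.66, -0.33 and 0.17 at 0, 1, 5 and 10 µM, and for Pdia6 -0.74, -0.92, -0.50 and -0.03. For Sdf2l1 the differences were -0.56, -0.47, -0.10 and 0.06. With all arrays those of Herpud1, Hspa5, Dnajb9 and Hsp90b1 were farther from 0 at 10 µM (0.75, 0.24, 0.18 and 0.27) than without HPTE (-0.14, -0.21, 0.06 and -0.11). Without the 2 arrays that went against their labels the differences without HPTE were -0.28, -0.40, 0.06 and -0.15. That of Hspa5 was then farther from 0 without HPTE than at 10 µM. At 5 µM 0 of the 9 genes passed by limma (8.08% of all probe sets called), 1 had an unadjusted p under 0.05, and Pdia6 passed with the block (adjusted p = 0.262 without and 0.03 with it; 7.87% of all probe sets lower). At 10 µM Herpud1 was higher in cAMP than in basal cells (0.75 ± 0.22, adjusted p = 0.0359), 1 of the 9 genes against 2.73% of all probe sets called higher. Its basal arrays at that dose measured 9.02, 8.71 and 9.16, all below the cAMP arrays. The call was lost without basal array 1 (0.78, adjusted p = 0.0791) or 2 (0.62, adjusted p = 0.204) and without cAMP array 1 (0.64, adjusted p = 0.187) or 3 (0.66, adjusted p = 0.162).

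**Figure D3:**
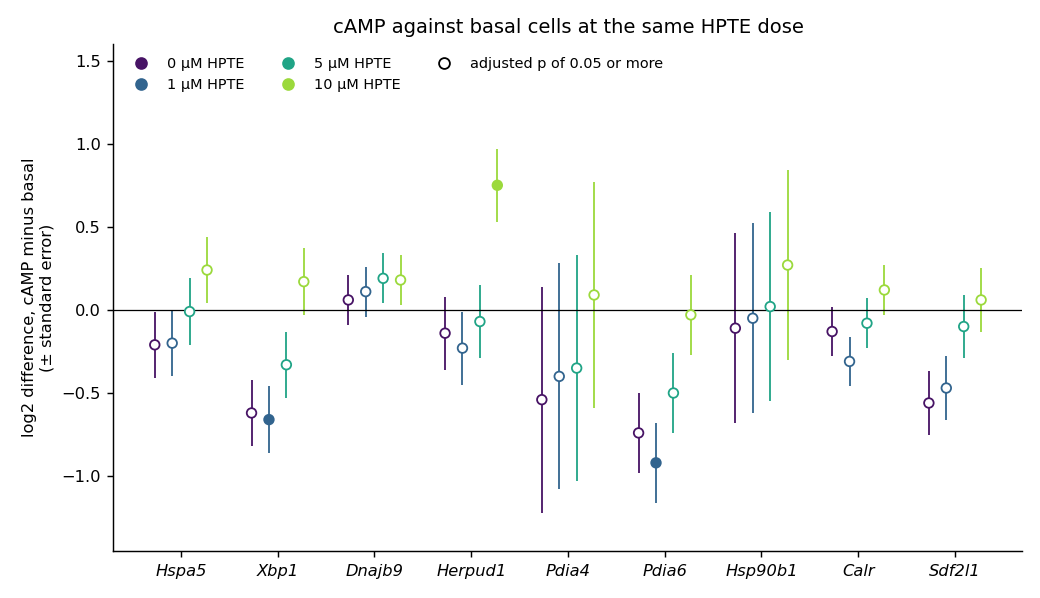
Log2 difference between cAMP and basal cells (vertical axis) for each gene at 0, 1, 5 and 10 µM HPTE (dark to light); points are limma estimates, bars are ± 1 SE, and filled points have an adjusted p under 0.05. For Xbp1 the difference goes from -0.62 at 0 µM to 0.17 at 10 µM and for Pdia6 from -0.74 to -0.03.

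Markers of macrophages and leukocytes and of theca and stroma also lay lower in cAMP than in basal cells, with overlap on unexposed arrays. The summed intensity of the 9 macrophage and leukocyte markers was 828 to 2260 on unexposed basal arrays, 845 to 2359 on basal arrays at 1 µM, 468 to 1133 on unexposed cAMP arrays, 399 to 501 at 1 µM and 551 to 985 at 10 µM. The defining markers Ptprc, Csf1r, Aif1, Cd74, Tyrobp and Itgam had a mean log2 intensity below 6 over all arrays. The 8 theca and stroma markers summed to 2506 to 3234 on unexposed basal and 1316 to 2601 on unexposed cAMP arrays, and to 2612 to 3531 against 1340 to 2221 at 1 µM, where the groups did not overlap; Cyp17a1, Gli1 and Tcf21 were below 6. The part of either list in the differences of Xbp1 and Pdia6 was not tested.

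FSH and basal cells were compared in the same way. Without HPTE 0 of the 9 passed by limma, against 8.06% of all probe sets called, and 2 had an unadjusted p under 0.05. The 8.06% gives no background for those 2. Pdia6 measured 10.17, 10.00 and 10.36 in FSH cells, below every basal array (-0.61 ± 0.24, adjusted p = 0.14), and passed with the block (adjusted p = 0.00776; 7.5% of all probe sets lower). Without the 2 arrays that went against their labels its difference was -0.52 (adjusted p = 0.329). At 1, 5 and 10 µM FSH and basal cells had no called gene among the 9, with an unadjusted p under 0.05 in 0 of them at each dose; of all probe sets 3.03%, 0.00322% and 0% were called.

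FSH and cAMP cells were compared directly at each dose, and 0 of the 9 genes passed by limma at any of them, with 1, 4, 0 and 1 at an unadjusted p under 0.05 at 0, 1, 5 and 10 µM. Of all probe sets 0%, 0.409%, 5.59% and 4.76% were called at these doses at the adjusted p, which gives no background for the unadjusted counts. At 1 µM Xbp1 (0.67 ± 0.20, adjusted p = 0.164) and Pdia6 (0.64 ± 0.24, adjusted p = 0.396) were higher on every FSH array than on any cAMP array and passed with the block (adjusted p = 0.0487 and 0.0278; 1.38% of all probe sets higher). At 10 µM Herpud1 differed by -0.66 ± 0.22 (adjusted p = 0.0889) and passed with the block (adjusted p = 0.0181; 5.03% of all probe sets lower). Without the 2 arrays that went against their labels, unexposed FSH cells had more Xbp1 (0.97, adjusted p = 0.000948) and Calr (0.57, adjusted p = 0.0139) than unexposed cAMP cells, 2 of the 9 genes against 1.44% of all probe sets higher; with all arrays these differences were 0.47 ± 0.20 and 0.19 ± 0.15 (adjusted p = 1 for both).

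Whether the effect of 10 µM HPTE differed between stimuli was tested as an interaction. By limma 0 of the 9 genes passed in the 3 interactions, with 4 (cAMP minus basal), 2 (FSH minus cAMP) and 0 (FSH minus basal) at an unadjusted p under 0.05. The shares of all probe sets called were 0.129%, 1.88% and 2.17%. Those shares are at the adjusted p and give no background for the unadjusted counts. Herpud1 had 0.89 ± 0.31 for cAMP minus basal (adjusted p = 0.834) and -0.92 ± 0.31 for FSH minus cAMP (adjusted p = 0.164), and the latter passed with the block (adjusted p = 0.035; 3.07% of all probe sets lower). The called rise of Herpud1, Xbp1 and Sdf2l1 in cAMP cells is therefore not shown by this fit to differ from that in other cells. Without the 2 arrays that went against their labels, the effect on Xbp1 was larger in cAMP than in basal cells (1.15, adjusted p = 0.00825), 1 of the 9 genes against 0.197% of all probe sets. In that fit FSH minus cAMP was called for Xbp1 (-1.12, adjusted p = 0.00177), Herpud1 (-1.28, adjusted p = 0.0195) and Calr (-0.69, adjusted p = 0.0157), 3 of the 9 genes against 2.25% of all probe sets lower. Removing unexposed cAMP array 2 alone gave 1.15 (adjusted p = 0.0142) and -0.98 (adjusted p = 0.0091) for the Xbp1 interactions, and removing unexposed FSH array 2 alone gave -1.13 (adjusted p = 0.0445) for Herpud1.

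Pdia4 and Hsp90b1 varied more with the array number than with the treatment. Hsp90b1 measured 10.92, 11.16 and 12.14 on unexposed basal arrays 1 to 3, 11.23, 10.92 and 12.45 on FSH arrays and 10.80, 11.38 and 11.72 on cAMP arrays. Pdia4 measured 8.20, 8.26 and 9.60, then 8.31, 7.84 and 9.47, then 7.81, 8.17 and 8.45 in the same groups. Array 3 was the highest of its group in 12 of 12 groups for both genes. It exceeded the mean of arrays 1 and 2 by 1.44 for Pdia4 and 1.23 for Hsp90b1 on average. The array number held 79.8% and 87.5% of their variance over the 36 arrays, and the 12 groups 10.7% and 5.71%.

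For the other 7 genes the groups held more of the variance than the number did. These shares are not adjusted for setting 12 groups against 3 numbers. With more categories the groups take more of any random spread, so this order does not rank treatment above number. The groups held 67.6% for Herpud1, 63.7% for Sdf2l1, 61.3% for Xbp1, 58.9% for Pdia6, 57.1% for Dnajb9, 41.8% for Hspa5 and 37% for Calr, and the number 5.19% (Xbp1) to 32.9% (Hspa5). Array 3 minus the mean of arrays 1 and 2 was on average 0.31 for Hspa5 and -0.15 for Xbp1. The arrays numbered 3 are those with the low Gapdh 3′ to 5′ ratio, whose part in the levels of Pdia4 and Hsp90b1 was not tested.

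**Figure D4:**
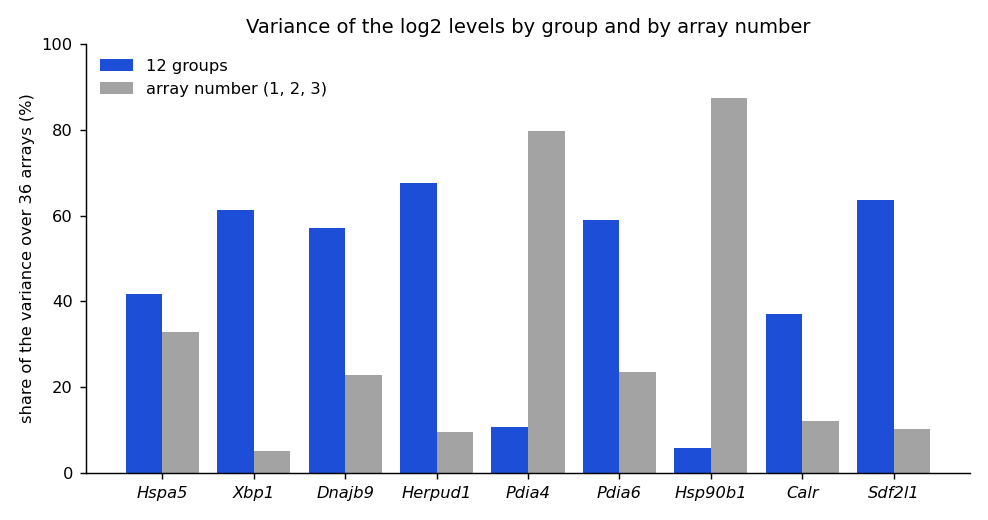
Share of the variance of the log2 level over 36 arrays (vertical axis, percent) held by the 12 groups (blue) and by the array number 1, 2 or 3 (grey) for each gene. The number holds 79.8% for Pdia4 and 87.5% for Hsp90b1, and the groups hold the larger share for the other 7 genes. Shares are not adjusted for setting 12 groups against 3 numbers.

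Other genes of the pathway were counted in fixed lists by their role. The list named for the PERK branch and its transcription factor Atf4 had the most called members. It counts transcripts, and PERK activity and eIF2alpha phosphorylation were not measured. In the average over stimuli at 10 µM, 7 of the 12 genes on this list rose and none fell, against 4.57% of all probe sets higher and 3.86% lower. The median was 0.862 over the list and -0.00754 over all probe sets. Trib3, a pseudokinase induced by Atf4, rose by 2.83 ± 0.21 (adjusted p = 4.15e-10), the transcription factor Ddit3 (CHOP) by 1.89 ± 0.28 (adjusted p = 2.5e-05), asparagine synthetase Asns by 1.76 ± 0.18 (adjusted p = 5.06e-08) and the stress protein Nupr1 by 1.76 ± 0.21 (adjusted p = 1.37e-06). Within stimuli 3 rose in basal cells (Trib3, Chac1 and Sesn2), 7 in FSH cells and 6 in cAMP cells (5 without the 2 arrays that went against their labels), and 0 fell. Of all probe sets 0.416%, 4.51% and 1.2% were called higher in these cells. In cAMP cells Chac1, which degrades glutathione, rose by 2.31 ± 0.29 (adjusted p = 1.46e-05). Without HPTE 4 of the 12 were lower in cAMP than in basal cells, against 4.49% of all probe sets, among them Nupr1 (-2.58 ± 0.37) and Asns (-1.81 ± 0.30).

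Of the sensors and transcription factors 10 of 11 were measured, Ern1 not among them, and 2 rose in the average over stimuli. The background for this and the following lists is the same 4.57% of all probe sets higher and 3.86% lower in that average. The 2 genes were Atf6 (0.59 ± 0.07, adjusted p = 1.38e-06) and Eif2ak3, which encodes PERK (0.50 ± 0.09, adjusted p = 0.000424). Atf6 rose in basal cells (0.62 ± 0.13, adjusted p = 0.00808) and FSH cells (0.76 ± 0.13, adjusted p = 0.000101), and Eif2ak3 in cAMP cells (0.63 ± 0.16, adjusted p = 0.0344). The Mbtps1 protease, which cuts Atf6, fell by 0.48 in FSH cells (SE 0.15, adjusted p = 0.0445).

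Among 9 measured cofactors of Hspa5, 2 rose in the average over stimuli and none fell. Dnajc3, a cochaperone that also inhibits PERK, rose by 0.96 ± 0.28 (adjusted p = 0.0283) and the translocon-bound Sec63 by 0.39 ± 0.09 (adjusted p = 0.00478). Of the 12 measured genes of ER-associated degradation 4 rose and none fell: the ubiquitin ligase adaptor Sel1l (0.56 ± 0.14, adjusted p = 0.0067), the lectin Os9 (0.48 ± 0.08, adjusted p = 0.00014), Derl2 (0.32 ± 0.06, adjusted p = 0.000582) and Selenos (0.26 ± 0.08, adjusted p = 0.0378). Sel1l and Os9 were also lower in cAMP than in basal cells without HPTE, by -1.01 ± 0.24 (adjusted p = 0.00542) and -0.70 ± 0.14 (adjusted p = 0.00125).

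Folding enzymes moved less uniformly. Of 16 disulfide and proline isomerases 4 rose and 1 fell in the average over stimuli. Pdia5 rose by 0.67 ± 0.13 (adjusted p = 0.000887), the oxidase Ero1b by 0.51 ± 0.09 (adjusted p = 0.00041) and Txndc12 by 0.36 ± 0.08 (adjusted p = 0.00215), while Creld2 fell (-0.50 ± 0.10, adjusted p = 0.00066). Of 9 glycoprotein folding genes 2 rose, the glucosyltransferase Uggt1 (0.49 ± 0.12, adjusted p = 0.0077) and calnexin, Canx (0.19 ± 0.06, adjusted p = 0.0478), the membrane-bound relative of Calr. The translocon and signal peptide list had 4 rises among 15 genes, led by the signal peptidase subunit Sec11c (0.84 ± 0.09, adjusted p = 2.13e-07) and the channel subunit Sec61a1 (0.74 ± 0.18, adjusted p = 0.0081).

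Chaperones outside the ER served for comparison. Of 13 measured cytosolic and mitochondrial chaperones 2 rose and 1 fell in the average over stimuli, and their median was -0.0982. The small heat shock protein Hspb1 rose by 1.02 ± 0.27 (adjusted p = 0.016), the mitochondrial Hspa9 by 0.53 ± 0.15 (adjusted p = 0.0195; not called without the 2 arrays that went against their labels, at 0.49 and adjusted p = 0.0523), and the mitochondrial chaperonin Hspd1 fell by 0.39 (SE 0.11, adjusted p = 0.0176). In FSH cells at 10 µM Hspb1 rose by 2.70 ± 0.48 (adjusted p = 0.000247), while Hspd1 (-1.08 ± 0.18), its partner Hspe1 (-0.95 ± 0.24) and Dnaja1 (-0.44 ± 0.12) fell, where 4.51% of all probe sets were called higher and 3.95% lower; in cAMP cells none of the 13 passed.

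**Figure D5:**
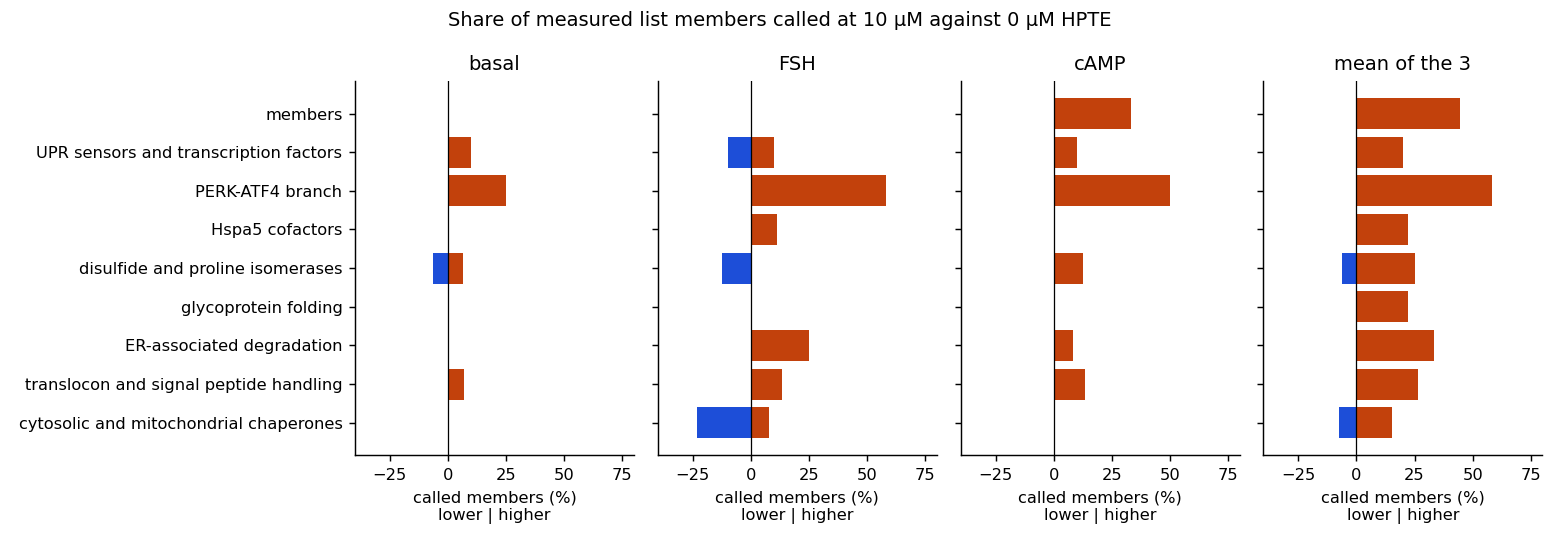
Share of the measured genes of each list (horizontal axes, percent) called higher (orange, to the right of 0) or lower (blue, to the left) at 10 µM against 0 µM HPTE in basal, FSH and cAMP cells and averaged over them. The PERK and Atf4 list has the longest bars, 7 of 12 in the average over stimuli, and the 9 genes described here reach 3 of 9 in cAMP cells and 4 of 9 in the average.

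The ERSE was searched in the same lists. Beyond the 9 genes it was in the windows of Dnajc3, Ero1b, Creld2, Canx and Derl3, and the ERSE-II in those of Hyou1 and Dnajb11. Of the ERSE holders that were measured, Dnajc3, Ero1b and Canx rose in the average over stimuli and Creld2 fell, so the direction was not the same for all of them. Among the 9 genes, Hspa5 with an ERSE and Herpud1 with an ERSE-II were called in that average by limma without the block. Calr, Hsp90b1 and Xbp1, each with an ERSE, were not. The other genes called in that fit, Dnajb9 and Sdf2l1, have neither element in their windows. With the block Hsp90b1 (adjusted p = 0.0306) and Xbp1 (adjusted p = 0.0248) passed too, and Calr did not (adjusted p = 0.519). Pdia4, with neither element, also passed with the block (adjusted p = 0.00827). Of the other ERSE-II holders, the large ER chaperone Hyou1 differed by 0.58 ± 0.37 (adjusted p = 0.489; 8.79e-05 with the block) and Dnajb11 by 0.34 ± 0.14 (adjusted p = 0.189; 0.00637 with the block).

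Over the 12 group means the 9 genes followed Hspa5 to different degrees. Pearson correlations with Hspa5 ran from 0.59 for Pdia6 to 0.91 for Sdf2l1. The highest between any 2 of the genes was 0.94, for Pdia4 and Sdf2l1, and the lowest 0.10, for Dnajb9 and Pdia6. Without the 2 arrays that went against their labels Pdia4 and Sdf2l1 had 0.87. The highest was then 0.93, for Hspa5 and Sdf2l1, and the lowest 0.11, again for Dnajb9 and Pdia6. On arrays 1 and 2 alone the highest was 0.91, for Xbp1 and Pdia6, and Dnajb9 and Pdia6 had -0.10. The group means share arrays across genes, so these values are descriptions. Of 9376 other genes with a mean log2 intensity of at least 6, those most like Hspa5 were Tmem30a (0.941), a subunit of lipid flippases; Dnajb11 (0.938), an ER cochaperone; the lysosomal protease Lgmn (0.930); Pdia5 (0.929); and sulfiredoxin, Srxn1 (0.924). Least like it were Ash2l (-0.926), a subunit of histone methyltransferases, Mpdz (-0.921), a scaffold protein, and the DNA damage kinase Atr (-0.918). Without the 2 arrays that went against their labels Dnajb11 (0.954) and Pdia5 (0.949) ranked 3 and 4, while Tmem30a (0.899) ranked 32, Srxn1 (0.899) ranked 33, Lgmn (0.868) ranked 71 and Atr fell to -0.511. On arrays 1 and 2 alone the order was another. Srxn1 (0.937) and Tmem30a (0.918) ranked 1 and 2, Lgmn (0.875) ranked 15, Pdia5 (0.863) ranked 18 and Dnajb11 (0.837) ranked 38.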

How the data were processed

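Log2 levels were taken from 36 arrays in 12 groups of 3. The authors deposited linear intensity values, 1 per probe set and array; RMA is named per the submitters' processing notes, without a version, and ArrayAssist per the series' design text. Arrays carry no read depth; their number limits the precision. Of 31099 probe sets 57 controls were set aside. Names came from the platform table, updated through RefSeq; of the 31042 probe sets tested, 20826 had 1 symbol, 436 several and 9780 none.

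R 4.3.3 with limma 3.58.1 (lmFit, contrasts.fit, eBayes) fitted 12 group means with 24 residual degrees of freedom. In all 27 comparisons p-values were adjusted by Benjamini-Hochberg over all probe sets, two-sided, with calls at an adjusted p under 0.05. The fits were tested on simulated data.

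Array numbers were checked as pairs. In 20 of 21 comparisons of 2 groups every same-numbered pair of arrays deviated from the group means with a correlation over 0.1. The exception was FSH against cAMP at 0 µM. Over all 66 pairs of groups, compared or not, this held in 59, and the correlations ran from -0.12 to 0.89 with a median of 0.51.

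The members, the lists and the tests were chosen with earlier results of these data known. The 9 genes were always named; of each list up to 4 genes with the largest difference among those called in a comparison could be named, and by likeness to Hspa5 the 5 highest and 3 lowest. Alternatives were the array number as a block, quantile normalization, a filter at a mean log2 of 6, arrays 1 and 2 only, leaving out the 2 arrays that went against their labels, array weights, a trended robust prior, and leaving out each array. Leaving out the 2 arrays together with the block was chosen after seeing the data. Motifs were searched as plain letters in the RefSeq windows.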

Additional observations from a re-analysis of the deposited data

Results flagged for a closer look

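The effect of 10 µM HPTE differed between stimuli, by limma's interaction test, for 3 of the other pathway genes. For Nupr1 of the PERK and Atf4 list the effect in FSH cells exceeded that in basal cells by 2.64 ± 0.52 on the log2 scale (adjusted p = 0.00439). For the small heat shock protein Hspb1 this difference was 2.69 ± 0.67 (adjusted p = 0.0275). The mitochondrial chaperonin Hspd1 went the other way: the effect in FSH cells was lower than in basal cells by -1.02 ± 0.26 (adjusted p = 0.0331) and lower than in cAMP cells by -1.06 ± 0.26 (adjusted p = 0.0267). All 3 genes also differed between unexposed FSH and basal cells, with -2.66 ± 0.37 for Nupr1, -2.83 ± 0.48 for Hspb1 and 1.07 ± 0.18 for Hspd1.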

How the results depend on the processing

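For the 28 pairs of a gene and a comparison that were called by limma, with the block or without the 2 arrays at 10 µM (each stimulus and the average), for cAMP against basal at 0, 1 and 10 µM, or in the interactions of cAMP with basal and FSH with cAMP, all 224 values under the other settings kept their sign, as did 288 with 1 array left out. Over all 243 pairs the sign changed for 18 without the 2 arrays that went against their labels (10 with the block as well), 30 with array weights, 33 on arrays 1 and 2 alone, 13 after quantile normalization and 0 in the other settings, and 0 of these were called. The block on all arrays, the filter and the trended robust prior leave the log2 differences as they are, so no sign could change there. The 28 pairs were also chosen because they were called, so their kept signs are no independent support. The counts of called genes among the 9 moved. With the replicate number as a block, the counts were 7 (3 in the main fit) for 10 µM in cAMP cells, 1 (0) in FSH cells and 8 (4) in the average; 3 (0) and 1 (0) for cAMP against basal at 0 and 5 µM; 1 (0) for FSH against basal at 0 µM; 2 (0) and 1 (0) for FSH against cAMP at 1 and 10 µM; and 1 (0) for the FSH minus cAMP interaction. Over all probe sets the block raised the calls from 525 to 1810 for 10 µM in cAMP cells and from 2617 to 5495 in the average. The shares of all probe sets called with the block were, in the order of the counts, 5.83%, 17.2%, 17.7%, 15.2%, 17%, 16.1%, 2.52%, 11.1% and 5.95%. The block changed no other count of the 9 genes beyond 1.5 times. Without the 2 arrays that went against their labels the counts were 5 for 10 µM in cAMP cells, 3 for cAMP against basal at 0 µM, 2 and 1 for FSH against cAMP at 0 and 1 µM, 1 for cAMP minus basal and 3 for FSH minus cAMP. The shares of all probe sets called were, in the same order, 2.55%, 7.31%, 2.19%, 1.36%, 0.226% and 3.62%. With the block as well the counts were 9 for 10 µM in cAMP cells, 3 at 5 µM in cAMP cells, 1 at 10 µM in FSH cells, 4 and 8 in the averages at 5 and 10 µM, 6, 4 and 1 for cAMP against basal at 0, 1 and 5 µM, 1 for FSH against basal at 0 µM, 4, 3 and 1 for FSH against cAMP at 0, 1 and 10 µM, and 5 in each of the interactions cAMP minus basal and FSH minus cAMP. The shares of all probe sets called were, in the same order, 9.23%, 2.02%, 16.3%, 8.77%, 17.8%, 17.3%, 19.6%, 18.8%, 16%, 7.91%, 4.65%, 12.9%, 1.7% and 9.85%. Array weights gave 1, 1 and 7 at 10 µM in basal, FSH and cAMP cells, 3 at 5 µM in cAMP cells, 1 in the average at 5 µM, 6 for cAMP against basal and 1 for FSH against basal at 0 µM, 1 each for FSH against cAMP at 1 and 10 µM, 5 for cAMP minus basal and 1 for FSH minus cAMP; the shares of all probe sets were, in the same order, 12.1%, 9.48%, 10.7%, 1.02%, 6.35%, 30.6%, 11.1%, 1.29%, 7.86%, 4.32% and 5.14%. Quantile normalization gave 1 and 5 at 10 µM in FSH and cAMP cells, 2 for cAMP against basal at 0 µM and 1 for FSH against cAMP at 10 µM (8.73%, 1.93%, 7.76% and 5.16% of all probe sets), and the filter on dim probe sets 1 at 10 µM in FSH cells and 2 for cAMP against basal at 0 µM (15.6% and 14% of those kept). Arrays 1 and 2 alone gave 0 at 10 µM in cAMP cells, 2 in the average, and 1 and 0 for cAMP against basal at 1 and 10 µM (1.06%, 7.93%, 7.44% and 6.01% of all probe sets). With 1 array left out, the counts ranged from 1 to 4 at 10 µM in cAMP cells, 0 to 1 in FSH cells and in the average at 5 µM, 0 to 3, 0 to 2 and 0 to 1 for cAMP against basal at 0, 1 and 10 µM, and 0 to 1 for FSH against cAMP at 10 µM and for the cAMP minus basal and FSH minus cAMP interactions. The cause of these changes in the counts was not tested. Shares of all probe sets were not counted with 1 array left out. Each gene had 1 probe set, so no other probe set could be tried.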
